A study of Mus musculus with 2 samples.

Results

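Stretches of RNA signal that lie just past the annotated 3′ end of a gene, on the gene's own strand, are described here for the adult mouse cerebellum. The deposited contig table lists 818912 contigs, which are unbroken stretches of the mm9 genome covered by aligned reads of 1 strand, and 607478 of them are autosomal and at least 200 bases long. Of these, 36468 overlapped no Ensembl gene span on either strand and began within 10 kb downstream of the 3′ end of a gene on the same strand. They are called downstream contigs, and each was assigned to the gene whose 3′ end is nearest, its anchor gene. Choosing them used position and length only. The shortest members are 118 contigs of exactly 200 bases, while 1789 autosomal contigs of 199 bases fell outside, and the largest distance was 10000 bases against 10001 for the nearest contig beyond the window.

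The RNA was taken from the cerebellum of C57BL/6J mice aged 8 weeks and sequenced as 2 libraries of 1 group, with no contrast between conditions. C57BL/6J is a widely used inbred strain, and the label of both libraries is pooled tissue of males and females. Polyadenylated RNA of over 200 nucleotides, depleted of ribosomal RNA, was read strand by strand from both ends of each fragment, 101 bases at a time, and the libraries share a donor record, so separate animals are not stated. The contig table pools them.

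The libraries held 83109117 (replicate 1) and 84279927 (replicate 2) expected counts. Markers of cerebellar neurons were high in both libraries, with Gabra6, the GABA-A receptor subunit of granule cells, at 336 and 269 TPM and Pcp2, a Purkinje cell gene, at 1585 and 1349 TPM. Against the label of pooled sexes, Xist had 45928 expected counts in replicate 1 and 26 in replicate 2, and the Y-linked Eif2s3y had 0 and 3776. Contigs on X and Y are not among the downstream contigs. Spread between libraries is given below where a table holds both, and intervals cover counting error only.

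The 3′ end of a messenger RNA is made by cleavage of the transcript and addition of a poly(A) tail, at a site marked by a hexamer such as AATAAA or ATTAAA a short distance upstream. Many genes have several such sites, and the choice among them sets the length of the 3′ untranslated region, which carries binding sites for microRNAs and RNA-binding proteins. Neurons are known for using distal sites and long 3′ untranslated regions, and RNA polymerase also continues past the cleavage site before it stops. Signal downstream of an annotated end can therefore lie in an unannotated stretch of the gene's own last exon, in transcripts read past the end, or in another transcript, and these cannot be told apart by position alone.

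The ends that a later annotation, GENCODE M21 on GRCm38, gives to some genes with strong downstream contigs are given as examples. The last 30 bases of transcripts of 9 genes are given 5′ to 3′, with AATAAA or ATTAAA in capitals. At each gene, a downstream contig lies largely inside a later exon, and a contig's far end lies within 573 bases of the later end. Other genes, such as Cd33, Mill2, Abcg2, Chrm3 and Zim1, also meet these limits and were not printed. The 9 genes do not stand for all such ends. "Later" marks the farthest M21 end and "mm9" an M21 transcript that ends within 10 bases of the mm9 gene end.
Atxn1 later, 5138 bases farther, chr13:45549755-45549784, minus strand: tactAATAAAataacagtgccaattgcaaa
Ksr2 later, 11676 bases farther, chr5:117774974-117775003, plus strand: aatgccAATAAAgaatttgagaattactgc
Klhl28 later, 3607 bases farther, chr12:64938833-64938862, minus strand: agagtttaaAATAAAactgaaaaatgtaaa
Cyp2u1 later, 2050 bases farther, chr3:131288441-131288470, minus strand: tgatcctATTAAAccgcttatttcagtgaa
Hcn4 later, 2220 bases farther, chr9:58863146-58863175, plus strand: ttttatttaAATAAAaaaaattacagcaaa
Panx1 later, 3033 bases farther, chr9:15002128-15002157, minus strand: tccttaAATAAAactttcccaagtaacaaa
Nudt21 mm9, chr8:94019405-94019434, minus strand: aagtttctcATTAAActctgaaaagtctta
Nudt21 later, 3907 bases farther, chr8:94015496-94015525, minus strand: gttatttcAATAAAaatatttaaaactgaa
Hrh2 mm9, chr13:54222403-54222432, plus strand: ttgttcaAATAAAatctacaacagaaagtc
Hrh2 later, 13748 bases farther, chr13:54236151-54236180, plus strand: gtttccatgttccAATAAAgctatcaacac
Wdr12 mm9, chr1:60076868-60076897, minus strand: gcAATAAAaaaaaaaaatagtctttcctga
Wdr12 later, 7083 bases farther, chr1:60069785-60069814, minus strand: atgttttgttttcataaacatatgcatctg

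Both ends of Nudt21 and Hrh2 hold a hexamer, while the later end of Wdr12 holds neither in these 30 bases. Among mm9 ends not printed, those of Prpf19, Slc9b2 and Vwde hold one. Those of Naa16, Tbck, Abcg2, Acer3, Mill2, Dedd2, Zfp780b, Nlgn1 and Samd15 hold neither, so the printed mm9 ends are not typical. The later ends of Grin2a, Zim1, Abcg2, Chrm3, Mettl6, Carnmt1, Tmem260, Dedd2 and Nlgn1 also hold neither and were not printed. The printed later ends are therefore not typical either. A downstream contig of level 0.3 or more lay at least 50% in a later exon at 36 protein-coding genes. By their farthest protein-coding transcript, 35 of them end at least 100 bases past the mm9 end, all but Dedd2, and 25 of the 35 (71.4%, exact 95% interval 53.7 to 85.4%) held AATAAA or ATTAAA in the last 30 bases of the transcript strand. Counted in the same way over all 18877 protein-coding autosomal genes compared, the share was 64.6%, and over 2602 other genes whose farthest end also lies at least 100 bases past the mm9 end it was 47.7% (45.8 to 49.6%). A match describes letters only, and these are ends of annotated transcripts, not of the contigs.

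Most downstream contigs were short and weakly covered. Their median length was 421 bases, and 5527 (15.2%) reached 1 kb. The level of a contig is the deposited coverage signal, on which 1 stands for a mean depth of 48.4 aligned bases per position over both libraries together. The median level of downstream contigs was 0.061, with quartiles of 0.042 and 0.091, which is a depth of 2.94. Levels of 0.3 or more were found in 938 contigs (2.57%) and levels of 1 or more in 206 (0.565%), while over all autosomal contigs of this length 13% and 5.35% reached them.

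Position relative to genes made little difference to the level outside gene spans. Against the median of 0.061 for downstream contigs, the 10576 contigs downstream of a 3′ end on the opposite strand had a median of 0.055, the 10071 contigs upstream of a 5′ end on the same strand 0.058, and the 79796 contigs more than 10 kb from any gene 0.054. Their quartile ranges overlap almost wholly. The 457189 contigs inside or across gene spans had a median of 0.084 and quartiles of 0.052 and 0.17. Levels of 1 or more made up 0.565% of downstream contigs, 0.482% of opposite-strand, 0.715% of upstream and 0.521% of distal contigs, against 6.93% of those in gene spans. The share for downstream contigs thus lay within the range of the other 3 classes outside genes. Downstream contigs were somewhat longer, with a median of 421 bases against 367 for opposite-strand, 376 for upstream and 369 for distal contigs.

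**Figure D1:**
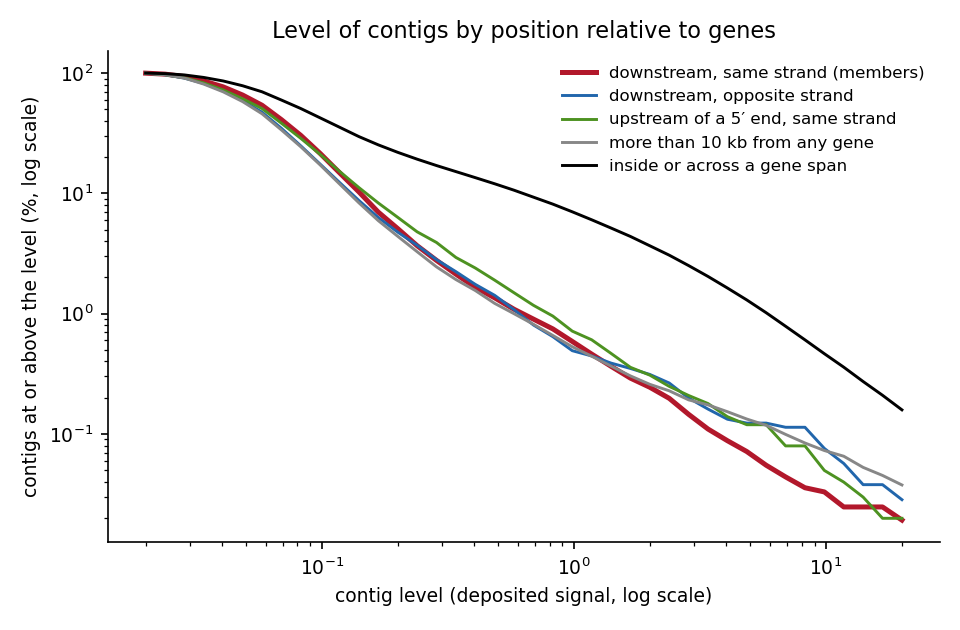
Percent of contigs at or above a given level (vertical axis, log scale) against the level, a deposited coverage signal (horizontal axis, log scale), for downstream contigs and 4 other classes of autosomal contigs. Downstream contigs run with the other classes outside genes, and contigs in gene spans lie above them, with 6.93% at level 1 or more.

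Downstream contigs were more numerous on the gene's strand than on the opposite strand. Leaving out the 7700 that also lie within 10 kb of the 3′ end of a gene on the other strand, 28768 contigs lay on the same strand and 10576 on the opposite strand, which is 73.1% on the same strand (exact 95% interval 72.7 to 73.6%) and a ratio of 2.72. With those included it was 77.5% (77.1 to 77.9%). The same-strand share was 75.6% in the first kilobase after the 3′ end and 70.4% in the tenth, so the strand imbalance persisted to the edge of the window. Counts on the same strand were 4235 in the first kilobase and 1914 in the tenth, against 1365 and 804 on the opposite strand. The median level of all members was 0.066 in the first kilobase and 0.056 in the tenth, while opposite-strand contigs had 0.056 and 0.054. A total of 8039 downstream contigs (22%) also lay within 10 kb upstream of the next gene on the strand, and 2192 (6.01%) had a gene of the other strand between them and the anchor gene.

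**Figure D2:**
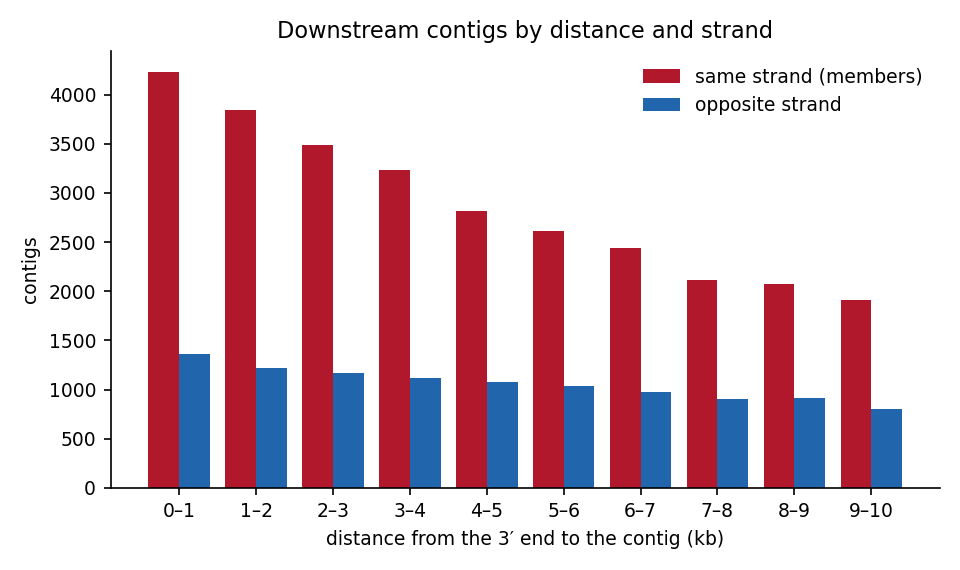
Number of contigs (vertical axis) by distance from the gene 3′ end to the near edge of the contig in kb (horizontal axis), for downstream contigs on the gene's strand and contigs on the opposite strand, both without contigs that lie near ends of both strands. Same-strand counts are 4235 in the first bin and 1914 in the last, above the opposite-strand counts in all 10 bins.

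The authors also gave each contig an irreproducibility value between 0 and 1, low where the replicates agree. It was at most 0.1 in 66.6% of downstream contigs, in 58.6% of opposite-strand contigs and in 74.3% of all autosomal contigs of this length. The value moved with the level: 24.8% of downstream contigs under level 0.05 were at 0.1 or less, 84.9% of those between 0.05 and 0.1, and 100% from level 0.1 on.

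The contigs fell to 10400 anchor genes, which is 30% of the 34653 autosomal genes of the mm9 table. The median was 3 contigs per anchor gene, 3013 anchor genes (29%) had 1, and 375 (3.61%) had 10 or more. The most were 17, all in a chain of 10448 bases after the microRNA gene Mir193a, followed by 15 after the pseudogene Gm13725. Among protein-coding genes 14 each followed Bcr, which encodes a GTPase regulator known from the BCR-ABL fusion, Retreg1, a receptor for autophagy of the endoplasmic reticulum, and the chemokine gene Ccl25. The same number followed Banf1, Hibadh and Cyp2r1. The median level was 0.0505 after Bcr, 0.0565 after Ccl25, 0.053 after Banf1, 0.0715 after Hibadh and 0.0645 after Cyp2r1. These lay within the quartiles of all downstream contigs, 0.042 and 0.091, while the median after Retreg1, 0.0345, lay below them. Protein-coding genes anchored 29271 contigs (80.3%), genes with no entry in M21 2119 (5.81%), processed pseudogenes 1040 (2.85%), long intergenic RNAs 884 (2.42%), microRNA genes 451 (1.24%), small nuclear RNA genes 446 and small nucleolar RNA genes 241.

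Most anchor genes were expressed, at low to middle levels. Their median RPKM was 1.03 in replicate 1 and 1.06 in replicate 2, against 0.00148 and 0 for the other 24253 autosomal genes. Of genes with a mean RPKM of 0, 7.23% had a downstream contig, and the share was 22.8% up to 0.1 RPKM, 47% up to 1, 55.5% up to 10 and 48.1% above 10. The level of the contigs hardly followed the gene: its median was 0.057 after genes at 0 and 0.065 after genes over 10 RPKM. Relative to the contig that covers the gene's own 3′ end, or the last one inside the gene, the median level was 0.0374 over 35020 downstream contigs, with quartiles of 0.0143 and 0.167. That ratio had a median of 0.714 after genes at 0 RPKM, 0.0714 after genes of 0.1 to 1 RPKM and 0.00516 after genes over 10. The ratio divides by the signal at the gene end, so its fall in higher genes describes that signal more than the signal past the end.

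Downstream contigs often began a small distance after the contig at the gene end. The annotated 3′ end itself was covered by a contig in 8286 anchor genes (79.7%), and this contig, which is no member because it overlaps the gene, reached a median of 551 bases past the end. The median break from there to the first downstream contig was 140 bases, and in 3559 genes (43%) it was at most 100. Joining contigs that begin within 1000 bases of the previous one, 7963 anchor genes (76.6%) had a chain leading away from the end, holding 25337 of the downstream contigs (69.5%). Chains reached a median of 3407 bases past the annotated end, with quartiles of 1568 and 6769, and 2831 reached 5 kb and 879 reached 10 kb. The longest, after the zinc finger gene Zfp619, reached 41179 bases.

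Strong downstream contigs were longer and closer to the end. The 206 at level 1 or more had a median length of 1138 bases and a median distance of 2035 bases from the end, while the 13015 under level 0.05 had medians of 328 and 4072 bases. The 206 held 128177846 of the 285285028 aligned bases in downstream contigs, of which 1 contig held 54170469. Where a contig of the gene itself could be compared, 106 of 181 at level 1 or more (58.6%) stood above it, against 2196 of all 35020 (6.27%). This difference is partly built in, because the 181 were chosen by the same level that is compared. Strong ones were also more often within 10 kb upstream of the next gene, in 36.4% against 22% of all. With protein-coding anchor genes these shares were 30.8% and 22.6%. A single interval, between Ube3a and Snrpn, held 31 of the 206 and is described at the end.

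Spliced reads joined few of them to their gene. A junction of at least 2 reads ran from inside the gene into the contig for 374 downstream contigs (1.03%), and in 195 of these both replicates had reads. The share was 0.2% under level 0.05 and 11.2% at level 1 or more. The junction into the contig after Ksr2, a scaffold of the Ras signalling pathway, had most reads, 121 in replicate 1 and 101 in replicate 2. Next came Tgfbr3, a co-receptor for TGF-beta, with 184 reads in all, and Kcnip1, a potassium channel partner, had 69. The contigs after Tgfbr3 and Kcnip1 were weak, at levels of 0.269 and 0.21, against 3.68 after Ksr2. In the transcripts that the authors assembled from the reads, 2266 downstream contigs (6.21%) lay at least 50% in exons of a transcript that shares an exon with the anchor gene, and 14233 (39%) lay at least 50% in any assembled exon of their strand. The share in assembled transcripts of the gene was 2.07% under level 0.05 and 28.2% at level 1 or more.

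Assembled exons carry a value per replicate. Of the 1510 assembled exons that hold downstream contigs and had 0.1 RPKM or more in either replicate, 44 (2.91%) were at least 2-fold apart after adding 0.1 RPKM, against 5.11% of all 497957 autosomal assembled exons at that level. The median was 0.29 RPKM in replicate 1 and 0.292 in replicate 2, against 0.434 and 0.423 RPKM for all assembled exons at that level. Adding 0.1 RPKM shrinks ratios more at low values, and these shares were not matched for RPKM. The log2 ratio of the exons that hold downstream contigs had a median size of 0.118. The widest gap was in an exon after Aes, a transcriptional co-repressor, with 8.46 RPKM in replicate 1 and 1.53 in replicate 2. Next came exons that were higher in replicate 2, one after Ighj4 with 0.0814 RPKM in replicate 1 and 0.753 in replicate 2, one after Gm10557 with 0.146 and 1 RPKM, and one after Rnu1b6 with 0.00494 and 0.312 RPKM. An exon after Npdc1 had 1.12 and 0.211 RPKM. These exons can extend beyond the contigs they hold. Several exons, such as those after Cnot2, carry identical values in each replicate, so the 1510 are not independent.

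**Figure D3:**
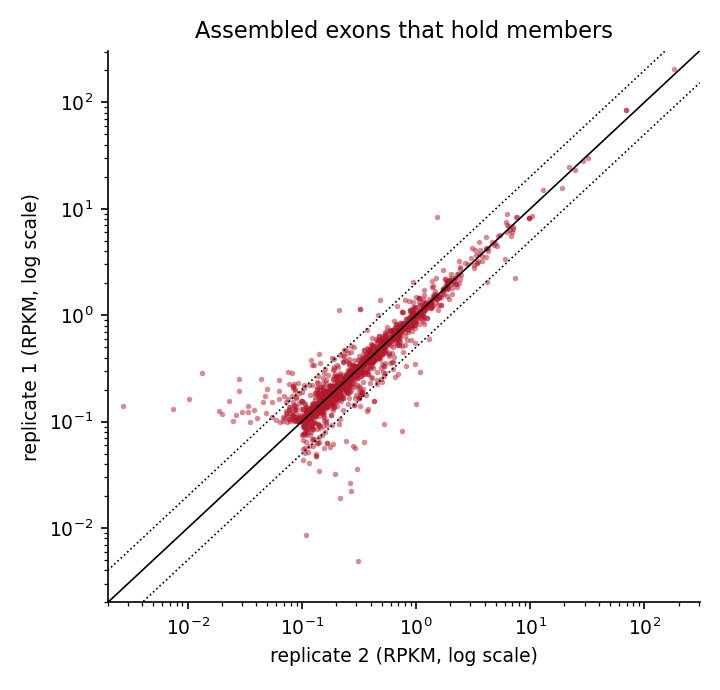
RPKM of 1510 assembled exons that hold downstream contigs, in replicate 1 (vertical axis, log scale) and replicate 2 (horizontal axis, log scale); each point is an exon, the solid line marks equal values and dotted lines a 2-fold ratio. Points gather on the line, and those beyond 2-fold lie mostly at low RPKM.

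Later annotation gave a check by a source that the choice of contigs did not use. Exons that M21 adds past the mm9 end were placed by their distance from the upstream edge of a last exon that both annotations share, without converting coordinates. Of 28446 downstream contigs of protein-coding genes that could be compared, 361 (1.27%), at 236 genes, lay at least 50% in such a later exon of the gene, and 272 lay wholly inside one. Of 6971 opposite-strand contigs, 1.36% did so by position. The shares by level differed. For downstream contigs they were 0.838% under level 0.05, 1.1% from 0.05 to 0.1, 1.81% from 0.1 to 0.3, 4.94% from 0.3 to 1 and 18.2% at 1 or more (20 of 110, exact 95% interval 11.5 to 26.7%). Counting contigs that lie wholly inside the later exon, the share at level 1 or more was 5.45% (6 of 110). For opposite-strand contigs the same 5 shares were 1.31%, 1.54%, 0.888%, 0.637% and 7.89% (3 of 38, 1.66 to 21.4%). From level 0.3 on, 44 of 596 downstream contigs (7.38%, 5.42 to 9.78%) and 4 of 195 opposite-strand contigs (2.05%, 0.562 to 5.17%) lay in a later exon. The intervals treat contigs as independent, although several can belong to 1 gene. Downstream contigs of protein-coding genes at level 1 or more began a median of 2070 bases past the end, against 4012 under level 0.05. The shares were not matched for distance.

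**Figure D4:**
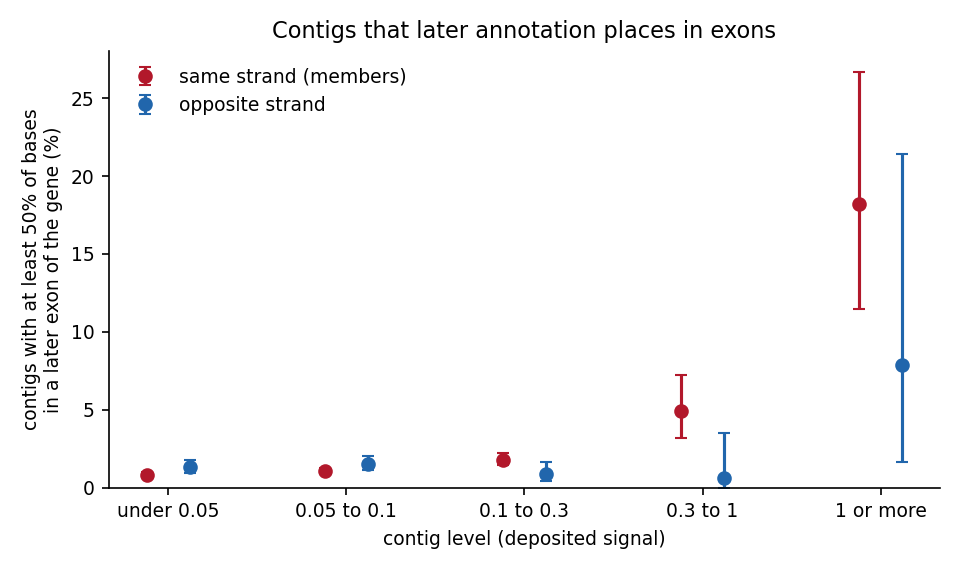
Percent of contigs with at least 50% of their bases in an exon that M21 adds past the mm9 gene end (vertical axis) by contig level (horizontal axis), for downstream contigs and opposite-strand contigs of protein-coding genes; bars are exact 95% binomial intervals. The share for downstream contigs is 0.838% in the lowest bin and 18.2% in the highest, and the opposite-strand share is 7.89% in the highest with an interval that overlaps.

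In 86 of the 361 the far end of the contig was within 100 bases of the later gene end. The contig after Panx1, a large-pore channel, ended 0 bases from it, that after Wdr12, a ribosome assembly factor, 1 base past it, that after the histamine receptor gene Hrh2 4 bases past it, and that after Hcn4, a pacemaker channel, 6 bases before it. Among protein-coding anchor genes expressed in both replicates, 1068 of 7749 (13.8%) had a later end at least 100 bases farther, against 801 of 7927 expressed genes with no downstream contig (10.1%). Of the 96 with a downstream contig at level 1 or more, 35 (36.5%) did. Neither here nor in the next comparison were the groups matched for expression or for gene-free space past the end. By the longest transcript in the mm10 tables, which use annotation M4, 644 of 8788 anchor genes (7.33%, exact 95% interval 6.79 to 7.89%) were at least 100 bases longer than in mm9, against 533 of 10521 other expressed genes (5.07%, 4.65 to 5.5%).

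Among protein-coding genes with a contig in a later exon, the highest level was at Atxn1, the gene of ataxin 1, whose expanded repeat causes a cerebellar ataxia. The contig at its mm9 end had level 3.68 and reached 1668 bases past it. A contig of 1357 bases at level 5.05 followed (mm9 chr13:45647206-45648562, minus strand), and then one of 2087 bases at level 10.2 (chr13:45645103-45647189), whose far end is 5159 bases past the annotated end. M21 ends the gene 5138 bases past it, 21 bases before the contig's far end. The exon assembled over the first contig had 0.769 RPKM in replicate 1 and 0.667 in replicate 2, and the gene itself 0.861 and 0.851 RPKM. The level rose along the 3 contigs away from the gene.

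Grin2a, which encodes an NMDA receptor subunit, and Ksr2 had longer tracts. After Grin2a a contig of 5445 bases began 265 bases past the end at level 1.38 (mm9 chr16:9572093-9577537, minus strand), and one of 5964 bases at level 5.84 followed (chr16:9566111-9572074) and reached 11692 bases. The last contig inside the gene had level 1.23. The later exon of Grin2a runs 9812 bases past the mm9 end and took in 100% of the first contig and 68.5% of the second, so the contig runs past the later end as well. The assembled exon with most overlap, 26.6% of the second contig, had 1 RPKM in replicate 1 and 1.24 in replicate 2. After Ksr2 a single contig of 10474 bases at level 3.68 began 1529 bases past the end (mm9 chr5:118214866-118225339, plus strand), against 0.403 for the contig at the gene end. It is the contig joined by 222 junction reads, and 90.2% of it is in a later exon that begins 2229 bases past the mm9 end.

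Shorter tracts of strong signal stopped near the later end after some genes and ran past it after others. After Klhl28, which encodes a kelch-repeat protein, a contig of 2275 bases had level 4.15 and ended 3896 bases past the mm9 end, where the later end is at 3607. The next contigs, from 3940 bases on, had levels of 0.106, 0.125, 0.069, 0.051 and 0.047. After Cyp2u1, a fatty acid hydroxylase, a contig at level 2.55 ended at 2335 bases, with the later end at 2050, and the next were at 0.059 and 0.029. After Tbck, a gene of a kinase-like protein, level 2.02 was followed by 0.219 past 4769 bases, with the later end at 3182. Nudt21 encodes a subunit of cleavage factor I, which takes part in the choice of poly(A) sites. A contig of 433 bases at level 3.81 and one of 1967 bases at level 1.9 followed its end, and 100% of the first and 27% of the second lay in its later exon. Dynlt1a, a dynein light chain gene, had contigs at 0.931, 2.43 and 1.41, but near-identical copies of this gene can share reads, so its values are uncertain.

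**Figure D5:**
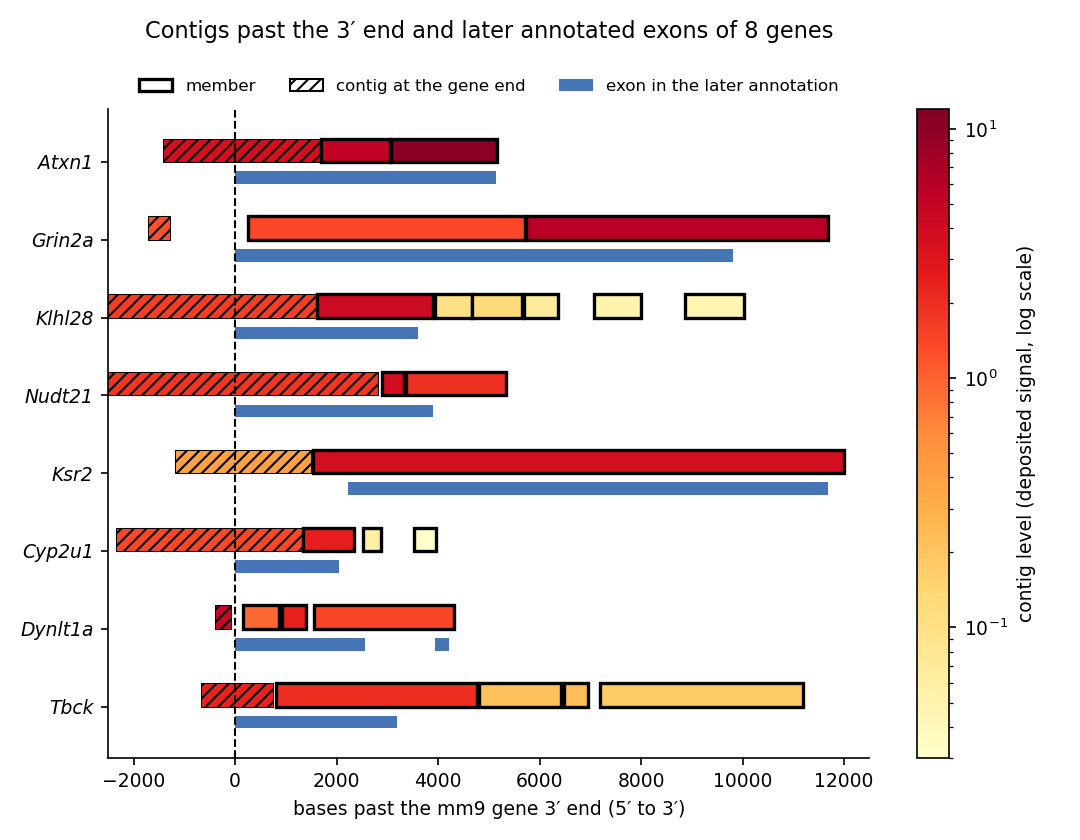
Contigs past the mm9 3′ end of 8 protein-coding genes, those with the highest levels among downstream contigs that lie at least 50% in a later exon, by bases past the end (horizontal axis, 5′ to 3′); outlined boxes are downstream contigs, hatched boxes the contig at or before the gene end, the fill gives the level (log scale) and blue bars are exons in M21. After Klhl28 and Cyp2u1 the level drops a short way past the later exon, and after Grin2a, Nudt21 and Tbck a strong contig runs over 1000 bases beyond it. The level after Tbck drops only past 4769 bases.

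Other strong contigs followed genes to which M21 adds no exon at the contig, or which could not be compared, as with Smc5. The most aligned bases at a protein-coding gene, 10323354, lay in a contig of 34415 bases at level 6.2 after Xkr6, an XK-related membrane protein gene (mm9 chr14:64440494-64474908, plus strand). It began 12 bases after the contig at the gene end, which had level 2.64, and stopped 4240 bases before the next gene on the strand. The gene had 1.15 RPKM in replicate 1 and 1.05 in replicate 2, and 6 junction reads, all of replicate 1, joined it to the contig. After Smc5, a subunit of a DNA repair complex, a contig of 26768 bases stood at 1.15, against 2.37 at the gene end, and after Zfp619 one of 35057 bases, the longest of all, at 1.26 against 0.575. Pex5l, a brain protein that binds pacemaker channels, had contigs at 5.67 and 11.3 beside 6.15 at the gene end, and M21 adds 223 bases to it. After Car8, a carbonic anhydrase-related gene of Purkinje cells with 31 and 26.9 RPKM, a contig of 2066 bases had level 3.66 against 11.3 at the gene end.

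The highest levels of all stood beside genes that were barely expressed. A contig of 658 bases on chromosome 15 had level 1700 and 54170469 aligned bases (mm9 chr15:86025180-86025837, plus strand), 7597 bases after the antisense gene Gm15569, which had 0.0282 RPKM in replicate 1 and 0.0165 in replicate 2. A contig of 325 bases after Rimbp3 reached 461 with 0.0426 and 0.0461 RPKM of the gene, a contig of 349 bases after the neutrophil elastase gene Elane 71.4 with 0.0104 and 0.0106 RPKM, and a contig of 434 bases after the chromatin remodelling gene Baz1a 27.6 with 0.0343 and 0.0307 RPKM. After the snoRNA gene Gm22519 a contig of 502 bases had level 77.5. After the pseudogene Gm20391, at 0 RPKM, a contig of 366 bases had level 35.5, and after Actn2, a muscle alpha-actinin gene, a contig of 447 bases had 19.8. The assembled exon with most overlap covered 18.4% of the first of these contigs and had 10.6 and 4.15 RPKM in replicates 1 and 2. After Rimbp3 it covered 35.7% and had 62.9 and 46 RPKM, and after Elane 59.3%, with 9.03 and 6.26 RPKM. The gene ENSMUSG00000066041, with no M21 entry and 0.0321 and 0.0168 RPKM, was followed by a contig of 1508 bases at level 21.4, and ENSMUSG00000075912, at 0 RPKM in both, by one of 10293 bases at 3.2. After the small nuclear RNA gene Gm22543, also at 0, a contig of 31471 bases had level 0.507, in a chain that reached 36988 bases. Whether reads with several places in the genome contribute to such contigs was not tested.

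Genes of neuronal and RNA-processing groups were looked up as lists. The background is that 54.5% of the 9493 autosomal genes with at least 1 RPKM in both replicates had a downstream contig, and 3.74% one at level 0.3 or more. At that expression, 22 of 26 genes of RNA-binding proteins had one, 11 of 14 Purkinje neuron genes, 11 of 18 glutamate receptor genes, 15 of 23 voltage-gated channel genes, 7 of 9 GABA-A and glycine receptor genes and 13 of 22 synaptic vesicle release genes. Granule neuron genes had 10 of 18, cytosolic ribosomal proteins 10 of 18 and cytoskeletal genes 12 of 22. Below the background share lay cleavage and polyadenylation factors with 6 of 16, astrocyte and Bergmann glia genes with 5 of 13, nuclear genes of mitochondrial respiration with 7 of 20 and oligodendrocyte genes with 3 of 12. Lists of this size differ by a few genes, and they were not tested.

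Few list genes had a strong contig. Beside Grin2a, Nudt21 and Car8, the highest contigs were at 0.762 after Cacna1a, the P/Q-type calcium channel gene, 0.718 after the potassium channel gene Kcnb2, 0.673 after the presynaptic scaffold gene Rims2 and 0.506 after Nova2, a neuronal splicing regulator. Nova1, its relative, had a contig at 0.466, Ank2, an ankyrin gene, one at 0.366, the sodium channel gene Scn1a at 0.335 and Cadps2, a secretion factor of granule neurons, at 0.332. Against the contig at their own gene end, at 27 for Scn1a and 18.2 for Ank2, these were weak, while Kcnb2 had 0.196 at the gene end. Highest in other lists were Gabrb2 at 0.227, Atp5c1 at 0.19, Apoe at 0.131, Rplp2 at 0.119 and Sox10 at 0.092.

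MicroRNA genes anchored some of the long contigs. A microRNA is cut from a longer primary transcript, and its seed, bases 2 to 8, pairs with targets. Mature sequences from RefSeq on GRCm38.p6 are given for 5 of these anchors, chosen after their values were seen, 5′ to 3′ with the seed in capitals.
miR-690: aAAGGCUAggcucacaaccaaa
let-7c-5p: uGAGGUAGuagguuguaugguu
let-7i-5p: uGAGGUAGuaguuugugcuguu
miR-7b-5p: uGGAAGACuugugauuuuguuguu
miR-29a-3p: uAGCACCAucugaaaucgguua
Let-7c and let-7i share the seed GAGGUAG. After Mir690 a contig of 30572 bases had level 0.914, in a chain that reached 40047 bases. A contig of 13006 bases at 0.273 followed Mirlet7c-1. After Mirlet7i came one of 11426 bases at 0.307, in a chain of 20211 bases, and after Mir7b one of 7402 bases at 0.403. After Mir29a the longest of 3 contigs had 4856 bases and the highest level was 0.266. None of the 451 contigs at 120 microRNA genes reached level 1, and their median was 0.063. The RefSeq table held 57 of the 120 genes by symbol.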

How the data were processed

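The mm9 tables of the series are per the file headers and attribute names, with aligner, contig caller and assembler settings not given in the sources used here. Each contig has, as deposited by the authors, a coverage signal, a fraction between 0 and 1 that is their irreproducibility value, and the count of aligned bases, all over both replicates together. Junctions were deposited as read counts, with those of each replicate in their names, and genes and exons (Ensembl 65 and assembled) as RPKM of replicates 1 and 2. The authors' mm10 tables gave expected counts, TPM and transcript lengths under annotation M4, in the columns that RSEM writes.

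Each of 37310 genes stands on a pair of lines that differ only in the irreproducibility value, and was used once. Contigs were classed by gene spans of that table, excluding X, Y and M, with the nearest upstream 3′ end on the strand as anchor. Contigs near ends of both strands were counted as downstream unless left out. Names and gene types came from GENCODE M21 by identifier, and for 1545 genes by transcript identifier; 9749 of 10400 anchor genes (93.7%) had a name. Junction ends were matched within 10 bases. Python 3.11.15, pandas 2.3.3, numpy 2.4.6 and scipy 1.17.1 were used, and interval functions were tested on simulated data.

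The group is single and the contigs are pooled, so no test between conditions exists and no p-value was computed. Intervals are exact (Clopper-Pearson) at 95%, and the 2 libraries are not stated to be separate animals. Named contigs are those with most aligned bases, highest level or greatest length, those of the longest chains and the anchor genes with most contigs, the highest in each list (1 list is not reported here), and those past level 0.3 in later exons. Further genes (those of the junction, replicate and strong-contig accounts) were chosen after their values were seen. The members, lists, level bins and later-exon comparison were chosen with earlier results of these data known. No mm9 genome was used, so contig sequences were not read.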

Additional observations from a re-analysis of the deposited data

How the results depend on the processing

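Of 70 alternatives, 29 left a value within its 95% interval, or a count within 1.5 times, 40 moved it and 1 reversed its sign; the cause was not tested beyond fewer or more contigs entering. The 36468 downstream contigs became 22765 with a window of 5 kb, 10696 with 2 kb, 14739 with a minimum of 500 bases and 24295 with irreproducibility values of 0.1 or less, and anchor genes 6750 with 2 kb and 6508 with 500 bases. Median level was 0.062, 0.065, 0.084 and 0.078 in those 4 settings (5 kb, 2 kb, 500 bases, 0.1) and 0.059 with no minimum length. Aligned bases were 152839760 with 5 kb and 84407761 with 2 kb. The same-strand share was 75.2%, 72.6%, 81.7% and 79.7% in those 4, 72.5% with no minimum length, 80.7% with expressed anchors, 78.7% with same-strand gene spans only and 73.1% without contigs near ends of both strands. The level ratio to the gene end was 0.0397 with 2 kb, 0.0462 with 500 bases, 0.0401 with no minimum, 0.0455 at 0.1 or less, 0.0342 with expressed anchors and 0.0284 with protein-coding ones. Junction support was 0.145% at 10 reads and 0.595 to 0.606% in single replicates. Cover by assembled transcripts was 3.78% for whole contigs and 6.6% for 1 base. The median log2 ratio between replicates, -0.0035, was -0.0004 with a pseudocount of 1 and 0.0086 from 1 RPKM on. Longer later annotation fell to 4.49% at 500 and 3.22% at 1000 bases. Chain reach was 2631 and 3952 bases for gaps of 200 and 2000, and 3596 for protein-coding anchors. The later-exon share at level 1 was 5.45% for contigs wholly inside, and 7.38% from level 0.3; with 1 contig per gene it was 16.8%. Alternatives on protein-coding anchors, on contigs near both strands, without the contig of most aligned bases and on later exons were chosen after seeing the data. No paired analysis was possible because there is 1 group. The polyadenylation-signal share in contig ends was not run, since no mm9 genome was used. At a median depth of 2.94 most contigs rest on few reads.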

Other observations

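Between the 5′ end of Ube3a and the 3′ end of Snrpn lies an imprinted interval known for a long neuronal transcript that runs antisense to Ube3a and carries many small nucleolar RNAs (mm9 chr7:66484122-67127388). On the minus strand it held 176 downstream contigs at 104 anchor genes. Their median level was 0.16, with quartiles of 0.0935 and 0.515, against 0.061 for all 36468 downstream contigs, and 31 (17.6%) were at level 1 or more, against 0.565%. The highest stood at 8.98. For 155 of the 176 the anchor gene has no entry in M21, and 101 lay within 1000 bases of the start of the next gene on the strand. Over the 176 contigs the median RPKM of the anchor gene in replicate 1 was 0, and 164 of the 176 had an irreproducibility value of 0.1 or less. The interval held 2.3% of the aligned bases in downstream contigs. It was singled out after its values were seen.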
